A study of Mus musculus with 12 samples.

Results

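The genes described here encode the subunits, assembly chaperones and activators of the proteasome in mouse splenic B cells. They were chosen by name: a gene was a member when its annotated symbol began with Psm, a letter from a to g and a digit, and when it had a detected probe, meaning a probe above the array's limit of detection on at least 3 of 12 arrays. Of 49 such symbols on the array, 42 had a detected probe, among 10050 genes tested in all. Of the 42 genes, 40 encode proteasome subunits, chaperones or activators. The other 2, Psmc3ip (a cofactor of meiotic recombination) and Psme3ip1 (a protein that binds PSME3), share the name but are not parts of the particle.

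The study measured RNA on Illumina bead arrays in B cells from 8-week-old C57BL/6 mice, all heterozygous for a deletion of the E2A gene. E2A (Tcf3) encodes E12, a transcription factor that binds E-box sequences and is inhibited by calmodulin, and the mutant form of E12 used here resists calmodulin, per the series' title. All cells had 14 h of activation by interleukin 4 (5 ng/ml) together with CD40 ligand (200 ng/ml). A retrovirus that expressed E12 along with GFP was added in 2 rounds of 12 h, during which the medium also held lipopolysaccharide (200 ng/ml). The cells were then cultured for 22 h more and purified by their GFP fluorescence, so every group carried an E12 form delivered by retrovirus. The 4 groups of 3 arrays were mutant E12 cells given anti-IgM, mutant E12 cells left untreated, wild-type E12 cells given anti-IgM and wild-type E12 cells left untreated. Anti-IgM, an F(ab')2 antibody that activates the B-cell receptor, was given at 2.5 µg/ml for 3 h. The labels do not say whether replicates came from separate mice, so the p-values measure the spread between these samples, which may be technical.

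The proteasome degrades proteins tagged with ubiquitin. Its 20S core is a barrel of alpha and beta rings, and its 19S cap holds ATPases that unfold the substrate and other subunits that recognise and deubiquitinate it. Lymphocytes can replace the catalytic beta subunits PSMB6, PSMB7 and PSMB5 by PSMB9, PSMB10 and PSMB8, which gives the immunoproteasome, a form known for making peptides for MHC class I. Activators of the PA28 and PA200 families bind the ends of the core in place of the cap.

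Values are log2(quantile-normalized intensity + 50), an offset that shrinks the changes of dim probes, and changes are differences of group means with the standard error (SE) of one limma fit over 4 groups of 3 arrays. Adjusted p-values are limma's with Benjamini-Hochberg adjustment over 10050 genes within a comparison, and a gene is said to rise, fall or differ where that value is below 0.05. The deposited values had been normalized separately for the 2 E12 forms, with a median of 6.40 on the mutant E12 arrays and of 6.93 or 6.94 on the wild-type E12 arrays. The E12 form and the normalization set therefore cannot be told apart. Within an E12 form the comparison of anti-IgM with untreated cells does not cross the sets. Probes above the limit of detection numbered 16667 to 16676 on mutant arrays and 18110 to 18124 on wild-type arrays. Tcf3, which all 4 groups received, read 11.27, 12.79 and 12.54 in mutant cells with anti-IgM, 11.90, 12.31 and 12.93 in untreated mutant cells, 11.17, 10.45 and 10.34 in wild-type cells with anti-IgM and 10.50, 10.61 and 11.01 in untreated wild-type cells. It was higher with mutant E12 in both conditions, and its level does not show which form a cell carried. Of the B cell markers Cd22, Cd79b and Ms4a1 were detected on all 12 arrays, while the Pax5 probe and those for the T cell markers Cd3d, Cd3e, Cd3g, Cd4 and Cd8a were not detected.

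Of the 42 proteasome genes, 41 were detected on all 12 arrays, and Psmc6, a 19S ATPase, was detected on 6. The 7 symbols without a detected probe were the core subunits Psma1, Psma3 and Psma6, the testis form Psma8, the thymus form Psmb11, the cap subunit Psmd3 and the chaperone Psmg4. Their probes read at most 14.6 intensity units (Psma8), and the low readings of the general subunits Psma1 (at most 0.51) and Psma3 (at most 0.30) are bounds set by these probes and not levels of the RNA. For 22 of the genes a second probe, or more, was also detected, and those 28 other probes are used below as a check.

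**Figure D1:**
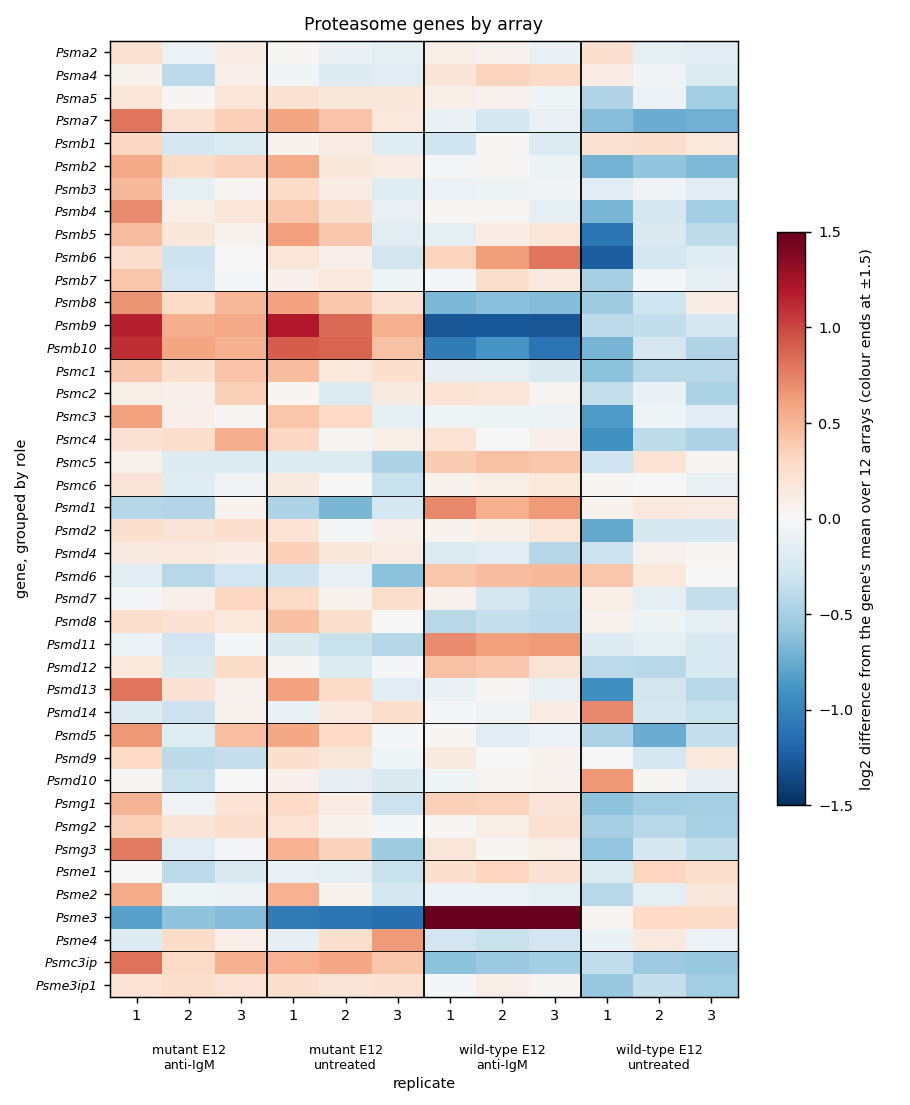
Colour gives each proteasome gene's log2 difference from its own mean over the 12 arrays, with genes in rows grouped by role and arrays in columns by group and replicate. The rows of Psmb8, Psmb9 and Psmb10 are high on all 6 mutant E12 arrays, and Psme3 is highest on the 3 arrays of wild-type E12 with anti-IgM.

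In cells with wild-type E12, anti-IgM raised subunits of the constitutive core and cap and lowered catalytic subunits of the immunoproteasome. Of the 42 proteasome genes, 17 changed, 15 up and 2 down, a share of 40.5%. Over all genes tested 31.3% changed, 15.1% up and 16.2% down. The median change of the proteasome genes was 0.34 on the log2 scale, beside -0.02 for all genes, and 30 of the 42 had no overlap between anti-IgM and untreated arrays, beside 50.3% of all genes. With replicate numbers blocked inside each form of E12 the count was 26, 21 up and 5 down, beside a background of 39.1%. All 17 were among these 26, and the 9 gained were Psmb1, Psmb4, Psmb5, Psmb8, Psmc1, Psmd13, Psmd5, Psmd8 and Psmg3. Without wild-type anti-IgM replicate 1 the count was 11, beside 2272 of 9920 genes in all. With array weights it was 30, beside 5196 of 10050 genes, where the main fit called 3148.

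The largest rise among the proteasome genes was that of Psme3, which encodes PA28 gamma, the nuclear activator of the core. Psme3 read 12.23, 12.10 and 12.09 with anti-IgM, against 10.59, 10.86 and 10.85 in untreated wild-type cells. The lowest anti-IgM array lay more than 1 log2 unit above the highest untreated one. The change was 1.37 ± 0.12 (SE, limma, adjusted p = 1.74e-06), and it lay between 1.24 and 1.43 under all alternatives run. The other activators did not pass the test. Psme1 and Psme2 encode the alpha and beta chains of the other PA28 ring, which interferon induces. Psme1 read 12.54, 12.62 and 12.52 with anti-IgM, against 12.09, 12.62 and 12.54 untreated, and changed by 0.14 ± 0.15 (limma, adjusted p = 0.529). Psme2 read 8.52, 8.52 and 8.46 with anti-IgM, against 8.19, 8.46 and 8.78 untreated, so the untreated arrays lay on both sides of the anti-IgM arrays. Psme4, which encodes the activator PA200, read 10.39, 10.34 and 10.39 with anti-IgM, against 10.58, 10.82 and 10.59 untreated. All 3 anti-IgM values were below the untreated ones, but the difference of -0.29 had an adjusted p of 0.233 in limma.

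Among the constitutive beta subunits Psmb6, the caspase-like catalytic subunit, changed most. Psmb6 read 12.11, 12.39 and 12.57 with anti-IgM, against 10.53, 11.50 and 11.58 in untreated wild-type cells. The groups did not overlap, and untreated replicate 1 lay about 1 log2 unit under the other untreated arrays. The change was 1.15 ± 0.24 (limma, adjusted p = 0.00235), and 0.82 without untreated replicate 1, still past the test. A second Psmb6 probe gave 1.37. Psmb2, a structural subunit, rose by 0.63 ± 0.13 (limma, adjusted p = 0.00232). The trypsin-like catalytic subunit Psmb7 changed by 0.35 (adjusted p = 0.141) and the chymotrypsin-like subunit Psmb5 by 0.62 ± 0.23, with an adjusted p of 0.052 in limma. Psmb4 changed by 0.46, Psmb3 by 0.06 and Psmb1 by -0.38, and none of the 3 passed. The count for this ring was thus 2 of 7 up and 0 down, beside 15.1% and 16.2% of all genes, with a median of 0.46.

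The catalytic subunits of the immunoproteasome moved the other way, 0 of 3 up and 2 of 3 down, with a median of -0.55. The shares of all genes were 15.1% up and 16.2% down. Psmb9, the counterpart of Psmb6, read 9.60, 9.61 and 9.59 with anti-IgM, against 10.48, 10.51 and 10.61 in untreated wild-type cells. The change was -0.94 ± 0.18 (limma, adjusted p = 0.00117), and it lay between -0.97 and -0.84 under all alternatives run. Psmb10, the counterpart of Psmb7, read 9.18, 9.34 and 9.12 with anti-IgM, against 9.53, 9.98 and 9.78 untreated. These groups did not overlap either, and the change was -0.55 ± 0.18 (limma, adjusted p = 0.0282). The call on Psmb10 was lost with the deposited values (adjusted p = 0.0537) and without any 1 of wild-type untreated replicates 2 and 3 and anti-IgM replicates 1 and 3, with a highest adjusted p of 0.114. Psmb8, the counterpart of Psmb5, read 11.71, 11.76 and 11.73 with anti-IgM, against 11.85, 12.08 and 12.50 untreated. All anti-IgM values were lower, and the difference of -0.41 ± 0.16 had an adjusted p of 0.0704 in limma and of 0.0265 with the replicate block.

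Sequence around the transcription start is shown for 4 of these genes, Psmb6 and its inducible counterpart Psmb9, which moved in opposite directions, Psmb10, and Psme3, the gene that moved most. Each is the RefSeq promoter of build GRCm38.p6, 5′ to 3′ on the gene's strand, 250 bases before to 50 after the start. Capitals mark bases within a match to one of 6 motifs searched on both strands: TGACNNNGC (the core of the antioxidant response element), CCAAT, the E-box CACGTG, the E-box CAGCTG, the E-box CAGGTG, and the core of the interferon-stimulated response element. Psmb9 lies at chr17:34187281-34187580 on the minus strand, Psmb10 at chr8:105938343-105938642 on the minus strand, Psmb6 at chr11:70525107-70525406 on the plus strand and Psme3 at chr11:101315963-101316262 on the plus strand.
Psmb9: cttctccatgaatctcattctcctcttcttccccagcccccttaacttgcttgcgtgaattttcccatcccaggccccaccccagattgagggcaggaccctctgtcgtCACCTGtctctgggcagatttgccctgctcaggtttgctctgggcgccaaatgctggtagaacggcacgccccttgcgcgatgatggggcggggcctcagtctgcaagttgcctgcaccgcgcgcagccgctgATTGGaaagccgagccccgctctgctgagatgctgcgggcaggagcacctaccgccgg
Psmb10: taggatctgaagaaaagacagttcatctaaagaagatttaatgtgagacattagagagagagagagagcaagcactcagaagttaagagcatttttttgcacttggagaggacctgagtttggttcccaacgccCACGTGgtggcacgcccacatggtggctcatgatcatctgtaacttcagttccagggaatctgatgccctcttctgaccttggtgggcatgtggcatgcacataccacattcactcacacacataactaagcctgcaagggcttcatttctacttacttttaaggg
Psmb6: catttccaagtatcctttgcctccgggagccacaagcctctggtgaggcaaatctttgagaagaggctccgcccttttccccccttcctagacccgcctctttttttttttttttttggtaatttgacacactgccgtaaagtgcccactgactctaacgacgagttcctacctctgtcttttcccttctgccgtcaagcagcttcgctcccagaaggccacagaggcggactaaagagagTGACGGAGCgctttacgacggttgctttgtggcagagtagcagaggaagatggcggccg
Psme3: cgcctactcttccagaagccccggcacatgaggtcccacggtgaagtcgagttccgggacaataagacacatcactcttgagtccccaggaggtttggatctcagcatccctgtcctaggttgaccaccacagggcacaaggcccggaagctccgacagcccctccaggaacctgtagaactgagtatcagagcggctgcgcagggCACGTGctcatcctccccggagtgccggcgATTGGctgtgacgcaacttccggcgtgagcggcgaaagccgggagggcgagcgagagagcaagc
The Psmb9 window held CAGGTG on the opposite strand, with its first base at -141 from the start, and CCAAT on the opposite strand at -8. The Psmb10 window held CACGTG at -116. The Psmb6 window held TGACNNNGC at -9. The Psme3 window held CACGTG at -44 and CCAAT on the opposite strand at -14, and the Psmb8 window held none of the motifs.

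A promoter was found for 36 of the 42 genes, 39 promoters in all. TGACNNNGC was in 15.4% of these 39 (Psmb5, Psmb6, Psmc6, Psmd12, Psmd9 and Psme4), beside 12.4% of all 32851 promoters in the table. CACGTG was in 12.8% (Psma4, Psmb10, Psmd9, Psme3 and Psme3ip1), beside 7.15%. CAGGTG was in 17.9%, beside 20.2%, and CAGCTG in 7.69%, beside 16.3%. CCAAT was in 30.8%, beside 37.4%, and the interferon element core in 10.3% (Psmb3, Psmd4, Psmd9 and Psme1), beside 3.44%. These matches describe letters in a window and were not tested as binding sites.

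In the alpha ring, which gates the core, 2 of 4 genes rose with anti-IgM in wild-type cells and 0 fell. Over all genes 15.1% rose and 16.2% fell. Psma7 rose by 0.54 ± 0.15 (limma, adjusted p = 0.015) and Psma5 by 0.38 ± 0.13 (limma, adjusted p = 0.0331). Psma4 changed by 0.32 and Psma2 by 0.04, and neither passed. The call on Psma5 held in 14 of 21 alternative settings and that on Psma7 in 19 of 21.

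In the 19S cap, 3 of 6 ATPases and 4 of 10 other subunits rose and 0 fell, beside 15.1% and 16.2% of all genes. Among the ATPases, which unfold the substrate, the rises were 0.68 for Psmc4, 0.45 for Psmc2 and 0.43 for Psmc5. Psmc1 changed by 0.32 (adjusted p = 0.057), Psmc3 by 0.29 and Psmc6 by 0.13, and none of the 3 passed. Among the other subunits Psmd11, a lid subunit, rose most. Psmd11 read 9.46, 9.35 and 9.38 with anti-IgM, against 8.55, 8.60 and 8.51 untreated, with a change of 0.84 ± 0.11 (limma, adjusted p = 7.08e-05). Each untreated array lay below every anti-IgM array, and a second Psmd11 probe rose by 0.63. The lid subunit Psmd12 rose by 0.69, and the large base scaffolds Psmd1 and Psmd2 by 0.53 and 0.52. Psmd13 (0.47), Psmd6 (0.26), Psmd14 (-0.03), Psmd7 (-0.05), Psmd4 (-0.18) and Psmd8 (-0.33) did not pass. The value for Psmd7 depends on the probe, since its other probes gave 0.81 and 0.02.

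Over the 27 genes of the constitutive core and cap, 11 rose, 0 fell and 22 had a change above 0, with a median of 0.38. The background was 15.1% of all genes up and 16.2% down. Of the chaperones that assemble the core, Psmg1 rose by 0.84 ± 0.17 (limma, adjusted p = 0.00156) and Psmg2, its partner, by 0.58 ± 0.11 (limma, adjusted p = 0.00128), while Psmg3 changed by 0.49 without passing. None of the 3 chaperones of the cap's base passed: Psmd5 changed by 0.45, Psmd9 by 0.10 and Psmd10 by -0.17. Psme3ip1 rose by 0.52 and Psmc3ip changed by -0.07. The calls on Psmb2, Psmb6, Psmb9, Psmc4, Psmd11, Psmd12, Psmd2, Psme3, Psme3ip1, Psmg1 and Psmg2 held in all 21 alternative settings run. Of the 28 other detected probes, 15 belonged to genes that changed, and all 15 had the sign of the gene's main probe.

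**Figure D2:**
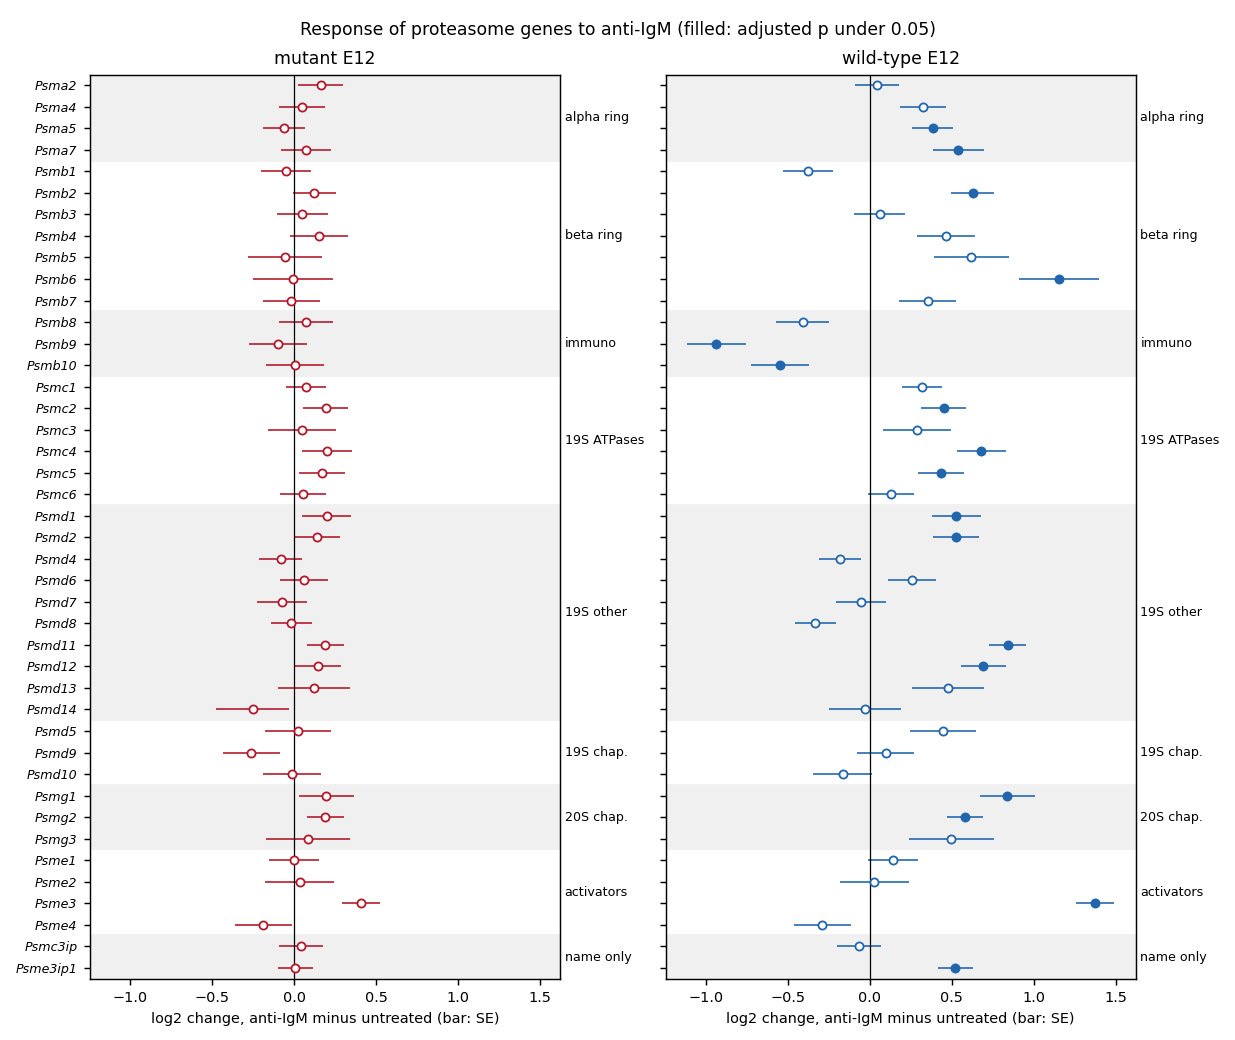
Points give the log2 change of each proteasome gene, anti-IgM minus untreated, for mutant E12 on the left and wild-type E12 on the right, with bars of 1 SE and filled points where the adjusted p is below 0.05. With mutant E12 all 42 points are open, and with wild-type E12 there are 17 filled points, from Psmb9 at -0.94 to Psme3 at 1.37.

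In cells with mutant E12, anti-IgM changed 0 of the 42 proteasome genes, where 0.229% of all genes changed, 0.189% up and 0.0398% down. The median change of the proteasome genes was 0.05. At an unadjusted p below 0.05, limma gave 1 proteasome gene (Psme3) and 922 genes in all, or 9.17%. With array weights, limma called Psme3 at 0.43 (adjusted p = 0.0214), beside 717 of 10050 genes in all, where the main fit called 23. The block within each E12 form called 0 proteasome genes, beside 215 genes in all. Leaving out each of the 12 arrays in turn gave a count of 0 each time.

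Psme3 read 9.75, 9.96 and 9.91 with anti-IgM, against 9.51, 9.47 and 9.43 in untreated mutant cells. It was the 1 proteasome gene whose groups did not overlap, beside 12.1% of all genes, and its change was 0.41 ± 0.12 (limma, adjusted p = 0.196). Psmg2 had the next smallest p, with 9.57, 9.41 and 9.46 with anti-IgM, against 9.42, 9.27 and 9.19 untreated. The groups overlapped, and the change of 0.19 ± 0.11 had an adjusted p of 0.704 in limma. Psmd11 changed by the same 0.19 ± 0.11 (adjusted p = 0.706). Psmb9 read 12.04, 11.42 and 11.45 with anti-IgM, against 12.08, 11.72 and 11.40 untreated, a change of -0.10 ± 0.18 (limma, adjusted p = 0.957). Psmb8 changed by 0.07, Psmb10 by 0.01 and Psmb6 by -0.01. The remaining changes lay between -0.26 (Psmd9) and 0.20 (Psmd1, Psmc4 and Psmg1). The median SD of the proteasome genes over 3 arrays was 0.20 in mutant cells with anti-IgM and 0.18 in untreated mutant cells, beside 0.07 in wild-type cells with anti-IgM and 0.20 in untreated wild-type cells. Over all genes it was 0.18, 0.18, 0.10 and 0.16 in the same order, so it was lowest in the same group.

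The difference between the responses was tested itself, as the response with mutant E12 minus that with wild-type E12. It passed for 2 of the 42 proteasome genes, Psme3 and Psmd11, both below 0, where 6.95% of all genes passed, 3.48% above 0 and 3.46% below. For Psme3 the difference was -0.97 ± 0.16 (limma, adjusted p = 0.0041), and it passed in all 20 alternative settings, between -1.02 and -0.81. For Psmd11 it was -0.65 ± 0.16 (limma, adjusted p = 0.0245), and the call held in 12 of 20 settings. The call on Psmd11 was lost with the deposited values (adjusted p = 0.085), with an offset of 16, and without any 1 of wild-type anti-IgM replicates 1, 2 and 3, mutant untreated replicates 1 and 2 and mutant anti-IgM replicate 2. Its second probe gave a difference of -0.34 (adjusted p = 0.373).

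For the other 40 genes the responses did not pass in the fit with no block. With replicate numbers blocked inside each form of E12, which was done for the mutant arrays too, 7 of the 42 passed, beside 1402 of all 10050 genes. The 5 added were Psmb6 (adjusted p = 0.00204), Psmb9 (0.00403), Psmb5 (0.0331), Psmg1 (0.0365) and Psme3ip1 (0.0489), and of the 7 only Psmb9 was above 0. Without the block the nearest were Psme3ip1 at -0.51 (adjusted p = 0.0531), Psmb6 at -1.16 ± 0.34 (limma, adjusted p = 0.0588) and Psmb9 at 0.84 ± 0.25 (limma, adjusted p = 0.0645). A second Psmb6 probe gave -1.39, with an adjusted p of 0.0285 over all detected probes. Psmb10 differed by 0.55 (adjusted p = 0.216) and Psmb8 by 0.48 (adjusted p = 0.249), the same sign as Psmb9. The median over the 42 genes was -0.27, beside 0.01 for all genes, and 31 of the 42 were below 0. Limma gave 13 proteasome genes an unadjusted p below 0.05, among 2120 genes in all.

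**Figure D3:**
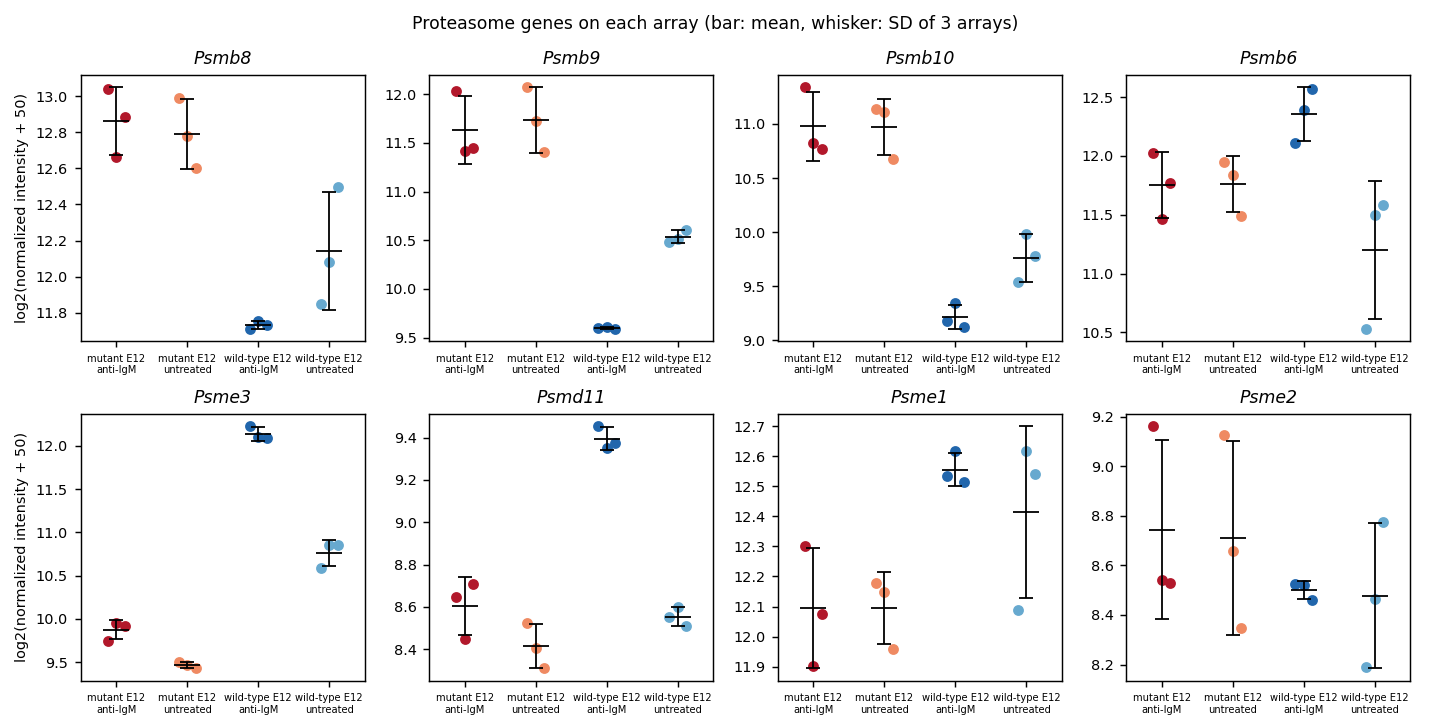
Each panel gives 1 proteasome gene as log2(normalized intensity + 50), with a point per array in the 4 groups, a bar at the mean and a whisker of 1 SD over 3 arrays. Psme3 averages 9.87 in mutant cells with anti-IgM, 9.47 in untreated mutant cells, 12.14 in wild-type cells with anti-IgM and 10.77 in untreated wild-type cells.

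Mutant and wild-type E12 were compared first in untreated cells, where 21 of the 42 proteasome genes differed, 18 higher and 3 lower with the mutant. That is 50%, beside 42.6% of all genes, 20.4% higher and 22.2% lower. The median difference was 0.32, beside 0.01 for all genes. With anti-IgM 16 proteasome genes differed, 9 higher and 7 lower, or 38.1%, beside 43.5% of all genes, 21.3% higher and 22.2% lower, and the median was 0.14. Mutant and wild-type arrays had no overlap for 23 of the 42 in untreated cells, beside 49.3% of all genes, and for 25 with anti-IgM, beside 58.1%. These counts depend on the scaling. On the deposited values with no joint quantile step 36 differed in untreated cells, 34 of them higher. The background there was 48.3%, 32.2% higher and 16.1% lower, and the median of the proteasome genes was 0.99, beside 0.13 for all genes. With anti-IgM that count was 32, 29 of them higher, beside a background of 46.9%, 31.7% higher and 15.3% lower, with medians of 0.75 and 0.11. Under both scalings 18 proteasome genes were higher and 2 lower with mutant E12 in untreated cells, and 9 higher and 3 lower with anti-IgM. These last counts have no share of all genes beside them, so an excess over the background cannot be judged from them.

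The immunoproteasome subunits were higher with mutant E12 under both scalings and in both conditions, 3 of 3 each time. Of all genes 20.4% to 32.2% were higher in those settings. Psmb9 read 12.08, 11.72 and 11.40 in untreated mutant cells, against 10.48, 10.51 and 10.61 in untreated wild-type cells, a difference of 1.20 ± 0.18 (limma, adjusted p = 0.000119). With anti-IgM Psmb9 averaged 11.63 ± 0.35 in mutant cells and 9.60 ± 0.01 in wild-type cells (SD, n = 3 arrays each), a difference of 2.04 ± 0.18 (SE) with an adjusted p of 1.17e-06 in limma. All 6 mutant arrays lay above all 6 wild-type arrays. Psmb10 read 11.14, 11.11 and 10.68 in untreated mutant cells, against 9.53, 9.98 and 9.78 in untreated wild-type cells, a difference of 1.21 ± 0.18 (limma, adjusted p = 9.91e-05). With anti-IgM it read 11.35, 10.83 and 10.77 in mutant cells, against 9.18, 9.34 and 9.12 in wild-type cells, a difference of 1.76 ± 0.18 (limma, adjusted p = 3.4e-06). Psmb8 read 12.99, 12.78 and 12.60 in untreated mutant cells, against 11.85, 12.08 and 12.50 in untreated wild-type cells, which put the lowest mutant array just above the highest wild-type one. That difference was 0.65 ± 0.16 (limma, adjusted p = 0.00513). With anti-IgM Psmb8 read 13.04, 12.66 and 12.88 in mutant cells, against 11.71, 11.76 and 11.73 in wild-type cells, a difference of 1.13 ± 0.16 (limma, adjusted p = 7.68e-05).

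The size of these differences moved with the scaling and the probe. On the deposited values they were 1.90 for Psmb9, 1.78 for Psmb10 and 1.55 for Psmb8 in untreated cells, and 2.63, 2.27 and 2.01 with anti-IgM. A second Psmb10 probe gave 0.53 in untreated cells (adjusted p = 0.0564) and 1.10 with anti-IgM, and a second Psmb8 probe gave 1.17 and 1.43. Averaged over the 3 genes, each array's deviation from the gene means was 0.98, 0.47 and 0.54 in mutant cells with anti-IgM, 0.90, 0.71 and 0.40 in untreated mutant cells, between -1.02 and -0.93 in wild-type cells with anti-IgM and -0.54, -0.31 and -0.20 in untreated wild-type cells. The same average over the 27 genes of the constitutive core and cap ranged from -0.34 to 0.25 over the 12 arrays and was lowest on the 3 untreated wild-type arrays.

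Psme3 went the opposite way from the immunoproteasome subunits between the E12 forms. It read 9.51, 9.47 and 9.43 in untreated mutant cells, against 10.59, 10.86 and 10.85 in untreated wild-type cells, a difference of -1.30 ± 0.12 (limma, adjusted p = 1.51e-06). With anti-IgM it read 9.75, 9.96 and 9.91 in mutant cells, against 12.23, 12.10 and 12.09 in wild-type cells, a difference of -2.27 ± 0.12 (limma, adjusted p = 3.27e-08). No mutant array reached the lowest wild-type array. On the deposited values the differences were -0.73 and -1.54, still past the test, and Psme3 had no other detected probe. Of the other activators, Psme1 was lower with mutant E12 after anti-IgM by -0.46 ± 0.15 (limma, adjusted p = 0.0218). It read 12.30, 11.90 and 12.08 in mutant cells, against 12.54, 12.62 and 12.52 in wild-type cells. Its sign turned to 0.46 on the deposited values, and its second probe gave 0.15, so no direction is settled for Psme1. Psme2 and Psme4 did not pass in either condition. Psme2 read 9.16, 8.54 and 8.53 in mutant cells with anti-IgM, 9.13, 8.66 and 8.35 in untreated mutant cells, 8.52, 8.52 and 8.46 in wild-type cells with anti-IgM and 8.19, 8.46 and 8.78 in untreated wild-type cells. Psme4 read 10.48, 10.95 and 10.78 in mutant cells with anti-IgM and 10.55, 10.92 and 11.31 in untreated mutant cells, and its differences from wild-type cells were 0.36 with anti-IgM and 0.26 untreated.

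In the constitutive core, 5 of 11 genes were higher in untreated mutant than in untreated wild-type cells and 0 lower. Over all genes 20.4% were higher and 22.2% lower, and 32.2% were higher on the deposited values. Psma7 read 12.15, 11.98 and 11.71 in mutant cells, against 10.92, 10.81 and 10.83 in wild-type cells, a difference of 1.09 ± 0.15 (limma, adjusted p = 7.18e-05) with no overlap. With anti-IgM it read 12.35, 11.79 and 11.92 in mutant cells, against 11.45, 11.29 and 11.44 in wild-type cells, a difference of 0.62 ± 0.15 (limma, adjusted p = 0.00437). Psmb2 differed by 0.93 untreated and 0.43 with anti-IgM, Psmb5 by 0.85 and 0.17, Psmb4 by 0.67 and 0.35, and Psma5 by 0.54 and 0.09, of which the values for Psmb5, Psmb4 and Psma5 with anti-IgM did not pass. Psmb6 had 0.56 untreated and -0.60 with anti-IgM, neither past the test (adjusted p = 0.0796 and 0.0581). Its second probe passed in both conditions, with 0.66 untreated and -0.73 with anti-IgM (adjusted p = 0.0416 and 0.0249). Psma4 was lower with anti-IgM by -0.36 (adjusted p = 0.0485), a call that held in 6 of 19 settings and turned to 0.49 on the deposited values. Psmb7, Psmb3, Psmb1 and Psma2 did not pass in either condition on the probe used, but another Psmb7 probe gave 0.55 in untreated cells (adjusted p = 0.0194).

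In the cap, the ATPases Psmc1 (0.77), Psmc4 (0.73) and Psmc3 (0.55) were higher in untreated mutant than in untreated wild-type cells, as were Psmd13 (0.78), Psmd2 (0.50) and the base chaperone Psmd5 (0.81). The call on Psmc3 held in 10 of 19 settings and that on Psmd13 in 17. With anti-IgM Psmc1 (0.52), Psmd8 (0.60) and Psmd4 (0.40) were higher and Psmc5 (-0.53), Psmd1, Psmd6 and Psmd11 were lower, while Psmc2, Psmc6, Psmd7, Psmd12 and Psmd14 and the chaperones Psmd9 and Psmd10 did not pass in either condition on the probe used. Other probes of 4 of these genes did pass. Psmd7 had one probe at -1.17 untreated and -1.21 with anti-IgM and another at 0.52 untreated, so its probes disagree in sign. Psmd9 had a probe at 0.56 untreated, and Psmc2 and Psmd12 each had a probe lower with anti-IgM, at -0.47 and -0.45. The value for Psmc5 turned to 0.19 on the deposited values.

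Of the cap subunits lower with mutant E12, Psmd6, a lid subunit with dim probes, read 6.72, 6.92 and 6.42 in untreated mutant cells, against 7.46, 7.19 and 7.04 in untreated wild-type cells. The difference was -0.54 ± 0.15 (limma, adjusted p = 0.00808), and with anti-IgM -0.74 ± 0.15 (limma, adjusted p = 0.0009), from 6.87, 6.62 and 6.75 in mutant cells, against 7.44, 7.50 and 7.52 in wild-type cells. The groups did not overlap in either condition, but a second Psmd6 probe gave 0.06 and 0.15. Psmd11 read 8.65, 8.45 and 8.71 in mutant cells with anti-IgM, against 9.46, 9.35 and 9.38 in wild-type cells, a difference of -0.79 ± 0.11 (limma, adjusted p = 7.1e-05). In untreated cells it read 8.52, 8.41 and 8.31 with mutant E12, against 8.55, 8.60 and 8.51 with wild-type E12, and the difference of -0.14 did not pass. A second Psmd11 probe gave -0.42 in untreated cells, with an adjusted p of 0.0235 over all detected probes. On the deposited values the anti-IgM difference was -0.45, still past the test. Psmd1 read 11.86, 11.64 and 12.06 in untreated mutant cells, against 12.38, 12.47 and 12.44 in untreated wild-type cells, a difference of -0.57 ± 0.15 (limma, adjusted p = 0.0062). With anti-IgM Psmd1 read 11.89, 11.88 and 12.37 in mutant cells, against 13.04, 12.86 and 12.96 in wild-type cells, a difference of -0.90 ± 0.15 (limma, adjusted p = 0.000217). Both turned above 0 on the deposited values, at 0.35 and 0.05, and other Psmd1 probes gave -0.75 and 0.17 in untreated cells, so its direction is not settled.

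The core chaperones Psmg1 (0.57) and Psmg2 (0.55) were higher in untreated mutant cells and did not pass with anti-IgM (-0.07 and 0.16), where another Psmg2 probe gave -0.49 (adjusted p = 0.034), and Psmg3 passed in neither condition. Psmc3ip was higher by 1.00 untreated and 1.11 with anti-IgM, and Psme3ip1 by 0.70 and, without passing, 0.18.

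**Figure D4:**
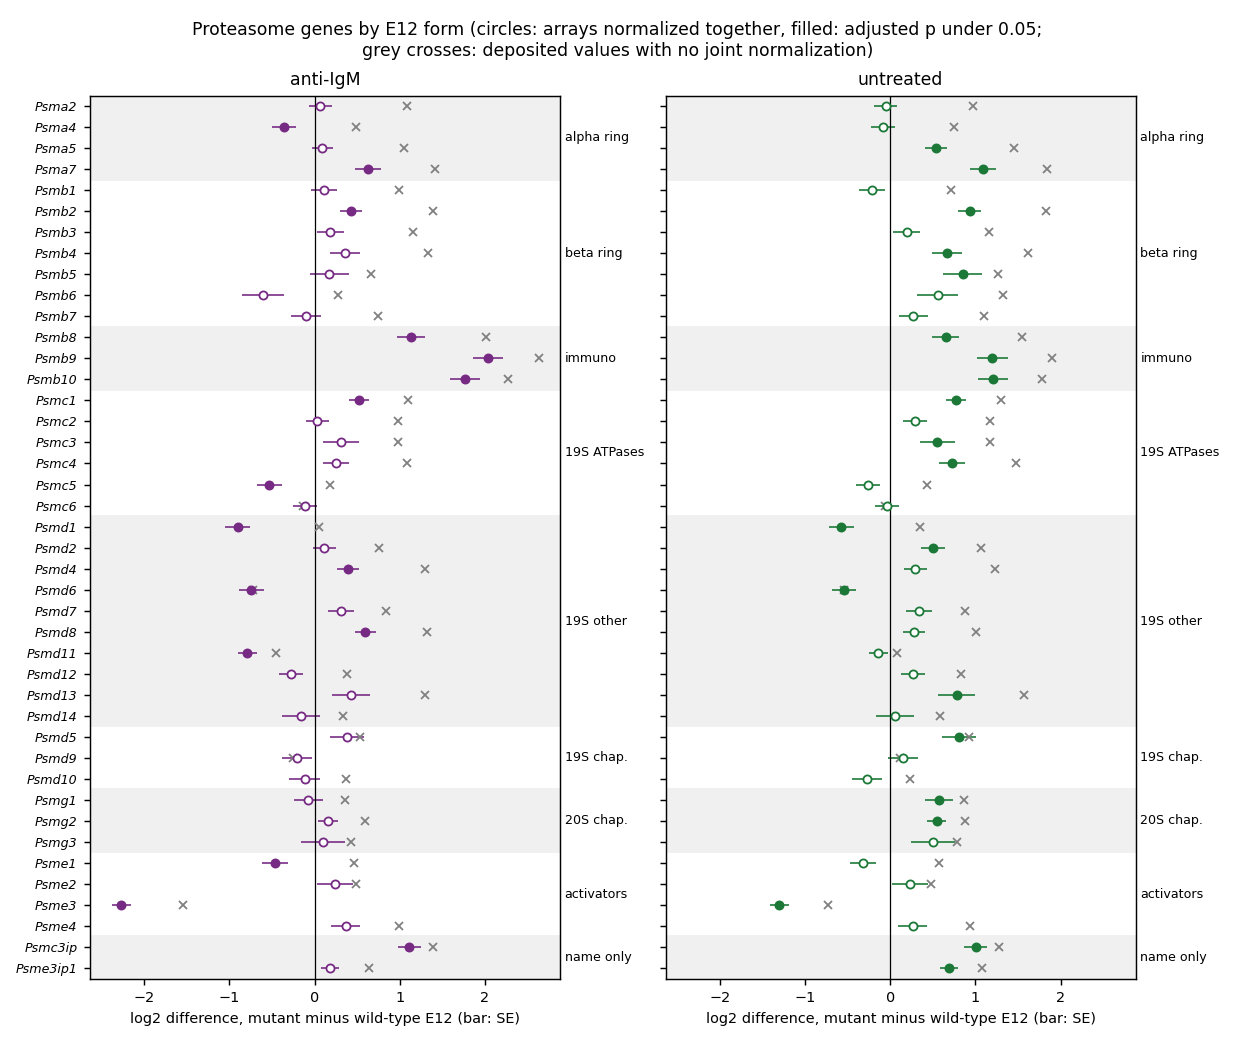
Points give the log2 difference of each proteasome gene, mutant minus wild-type E12, with 1 panel for each condition, bars of 1 SE and filled points where the adjusted p is below 0.05. Grey crosses give the same difference on the deposited values without joint normalization, which lie to the right of most points, and Psme3 lies far left under both, at -2.27 and -1.54 with anti-IgM.

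Genes that work with the proteasome but carry other names were listed beside it. Of 7 tested partners, 2 rose with anti-IgM in wild-type cells and 0 fell, beside 15.1% and 16.2% of all genes. Those that rose were Usp14 by 0.55 (adjusted p = 0.00267) and Uchl5 by 0.56 (adjusted p = 0.022), both deubiquitinases bound to the cap. Uchl5 changed by 0.49 on the deposited values, with an adjusted p of 0.0531. In mutant cells 0 of the 7 passed, and Usp14 changed by 0.34. With mutant E12 Pomp was higher by 0.48 in untreated cells and Sem1 by 0.35 with anti-IgM. Between the forms Usp14 was lower with mutant E12 by -0.87 in untreated cells and by -1.08 with anti-IgM, and on the deposited values by -0.86 and -1.02. Uchl5 was lower by -0.71 and -1.01, values that did not pass on the deposited scale. Of 8 genes for ubiquitin supply and delivery, Ubqln4 (0.74) and Rad23b (0.63), shuttle proteins, rose with anti-IgM in wild-type cells and 0 fell. Ubqln4 was lower with mutant E12 under both scalings, by -0.65 untreated and -1.16 with anti-IgM. Nfe2l2 was lower by -0.59 and -0.54. Nfe2l1, which encodes the factor known to raise proteasome genes when the proteasome is inhibited, was lower by -0.43 and -0.50, values that turned to 0.05 and 0.02 on the deposited scale.

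Of 12 tested genes of MHC class I presentation, which uses peptides from the immunoproteasome, 3 fell with anti-IgM in wild-type cells and 1 rose. Over all genes 16.2% fell there and 15.1% rose. Tap1, a chain of the peptide transporter and the neighbour of Psmb9, fell by 1.02 ± 0.14 on the log2 scale (limma, adjusted p = 0.000114). The transcription factor Irf1 changed by -0.72, the class I heavy chain H2-K1 by -0.38 and Tapbpl by 0.54, all past the test. In mutant cells 0 of the 12 passed, with Tap1 at -0.32 (adjusted p = 0.513), and the difference of the responses passed for 0 of 12 in limma, with Tap1 at 0.69 (adjusted p = 0.0567). In untreated cells 7 of the 12 were higher and 1 lower with mutant E12, beside 20.4% and 22.2% of all genes. Among those higher were Tapbp (1.22), Tap2 (1.01), H2-K1 (0.98) and H2-D1 (0.98). With anti-IgM 6 were higher and 1 lower, beside 21.3% and 22.2% of all genes. Those higher were led by Tap1 (1.52), H2-K1 (1.25), Tapbp (1.20) and Irf1 (0.92). The lower gene was Nlrc5 in both conditions, by -0.58 untreated and -0.62 with anti-IgM (limma, adjusted p = 0.0492 and 0.0362). On the deposited values 10 and 9 were higher and 0 lower, beside 32.2% and 31.7% of all genes higher.

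Markers of other cells moved with the groups as well. Over all genes 15.1% rose and 16.2% fell with anti-IgM in wild-type cells. With mutant against wild-type E12, 20.4% were higher and 22.2% lower untreated, and 21.3% and 22.2% with anti-IgM. The summed intensity of the 6 tested myeloid markers ranged from 524 to 814 in mutant cells with anti-IgM, from 543 to 737 in untreated mutant cells, from 834 to 1193 in wild-type cells with anti-IgM and from 1014 to 2828 in untreated wild-type cells. The highest value was that of untreated wild-type replicate 1, and the defining markers Csf1r and Itgam were not detected. The myeloid markers did not move as one. With anti-IgM in wild-type cells 1 rose (Fcer1g, 0.86) and 2 fell (Adgre1 and Mpeg1), and with mutant against wild-type E12 0 were higher and 4 lower untreated, and 1 higher (Mpeg1, 2.02) and 4 lower with anti-IgM. The sum of the 3 tested B cell markers was 11526 to 15675 in mutant cells with anti-IgM, 14123 to 17447 in untreated mutant cells, 12345 to 13396 in wild-type cells with anti-IgM and 24945 to 29830 in untreated wild-type cells. This linear sum mostly follows Cd79b, which read at least 13.24, where Cd22 read at most 12.42. All 3 markers fell with anti-IgM in wild-type cells, and in untreated cells all 3 were lower with mutant E12. For Cd79b that difference was -0.65 and turned to 0.27 on the deposited values. Of 5 plasma cell markers 4 were higher with mutant E12 in untreated cells and 0 lower, and with anti-IgM 3 were higher and 1 lower (Irf4, -1.30). On the deposited values 5 and 3 were higher and 0 lower, beside 32.2% and 31.7% of all genes higher. Irf4 with anti-IgM then differed by -0.50 (limma, adjusted p = 0.153). Jchain, Sdc1 and Prdm1 were dim, above the limit of detection on 9, 9 and 10 of 12 arrays. The sum of the 5 was 14435 to 21263 in mutant cells with anti-IgM, 16483 to 22301 in untreated mutant cells, 12291 to 13403 in wild-type cells with anti-IgM and 11493 to 11520 in untreated wild-type cells. It mostly follows Xbp1, which read at least 13.01, where Irf4 read at most 12.34. Irf4 rose by 1.63 with anti-IgM in wild-type cells, and its response was lower with mutant E12 by -1.86 (limma, adjusted p = 0.0133). The sum of the 2 tested NK markers was 730 to 2629 in mutant cells with anti-IgM, 691 to 1524 in untreated mutant cells, 1492 to 1999 in wild-type cells with anti-IgM and 3808 to 5857 in untreated wild-type cells. That sum follows Prf1, which read at least 9.52, where Nkg7 read at most 6.51. Prf1 was lower with mutant E12 in untreated cells by -2.13 and changed by -1.45 with anti-IgM in wild-type cells. Nkg7 did not pass, and Ncr1 and Klrb1c were not detected. Pecam1, the 1 tested stromal and endothelial marker, changed by -1.53 with anti-IgM in wild-type cells, and Col1a1, Col3a1 and Cdh5 were not detected. Of 3 tested dendritic markers Siglech changed by -0.70 with anti-IgM in wild-type cells and was lower with mutant E12 by -1.31 in untreated cells, while Flt3 and Itgax were not detected. The part of these shifts in the proteasome results was not tested, and fewer cells of a type and less RNA per cell cannot be told apart in bulk RNA.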

How the data were processed

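RNA was measured on 12 Illumina arrays in 4 groups of 3, taken from the sample titles. The deposited intensity of each probe was used, on a linear scale. Values below 0 show that the authors subtracted a background, and the shared medians show a normalization between arrays. Its software is not given in the sources used here. In a further table of signals, 12 columns match no label and were left out. A quantile normalization over all 12 arrays was followed by log2(value + 50). Each array's limit of detection (12.9 on wild-type arrays, 15.6 to 15.7 on mutant arrays) was set from how far its negative values spread, at a normal tail of 0.01. Of 45281 probes, 34885 had 1 symbol, 18 had several and 10378 had none, and the lookup by Entrez identifier of 34807 probes changed 0 symbols. A gene was its detected probe with the highest mean.

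Tests used R 4.3.3 and limma 3.58.1 (lmFit and eBayes, two-sided, 8 residual and 6.25 prior degrees of freedom) with Benjamini-Hochberg adjustment over 10050 genes in each of 5 comparisons. The fit was tested on simulated data. The number of arrays limits the precision. Replicate numbers were taken from the titles. Deviations of same-numbered arrays correlated at 0.289, 0.177 and 0.185 within wild-type E12, and those of differently numbered arrays at -0.245 to 0.153. Within mutant E12 the same-numbered arrays correlated at 0.608, -0.0455 and 0.547, and the differently numbered ones at -0.757 to 0.491. So few correlations cannot settle in which form the numbers pair the arrays. The values reported come from the fit with no block. The fit with a block inside each form, which blocks the mutant arrays too, is given beside them where it moves a count. Alternatives were the deposited values with no joint quantile step, an offset of 16, other detection filters, every probe on its own, array weights, replicate blocks, the 6 arrays of 1 E12 form alone and each array left out.

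The members and the gene lists were chosen with earlier results of these data known. Values on every array are given for the immunoproteasome subunits, the activators and, per comparison, the 3 largest rises and 3 largest falls past the threshold, or the 2 smallest p where none passed. Up to 4 genes of each other list were named by the same order. Promoters came from RefSeq (GRCm38.p6).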

Additional observations from a re-analysis of the deposited data

Results flagged for a closer look

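The anti-IgM response of 2 proteasome genes differed between the E12 forms by a test of the difference itself, mutant minus wild-type E12, in limma over 4 groups of 3 arrays. That was 4.76% of the 42 proteasome genes, beside 6.95% of all genes, so the share was not above the background. For Psme3 the difference was -0.97 ± 0.16 (limma, adjusted p = 0.0041), with a response of 0.41 in mutant cells and of 1.37 in wild-type cells. For Psmd11 it was -0.65 ± 0.16 (limma, adjusted p = 0.0245), with a response of 0.19 in mutant cells and of 0.84 in wild-type cells. The call on Psme3 held in all 20 alternative settings and that on Psmd11 in 12 of 20. Psme3 was lower with mutant E12 before treatment as well. For Psmd11 the untreated difference was -0.14 on the probe used, which did not pass, and -0.42 on its second probe (adjusted p = 0.0235 over all detected probes), and that second probe gave a difference of responses of -0.34, which did not pass. The cause of either difference was not tested.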

How the results depend on the processing

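The counts of proteasome genes past the threshold moved by over 1.5 times under the settings named here, most often for the difference of responses. Single-probe counts are out of 70 probes and not 42 genes, so their rise does not by itself show a larger share. The cause of the other moves was not tested. For the response with mutant E12, 0 in the main setting, array weights gave 1, beside 717 of 10050 genes in all. Leaving out each array in turn gave 0 to 0. For the response with wild-type E12, 17 in the main setting, every detected probe tested on its own gave 30 (of 70 probes). Array weights gave 30 and the replicate block within each E12 form 26, beside 5196 and 3929 of 10050 genes in all. Leaving out each array in turn gave 11 to 20, with 11 without anti-IgM replicate 1, beside 2272 of 9920 genes. For mutant against wild-type E12 in untreated cells, 21 in the main setting, the deposited values gave 36 and single probes 35 (of 70 probes). Leave-one-out counts ran from 19 to 24. With anti-IgM, 16 in the main setting, those settings gave 32 and 27 (of 70 probes), and leave-one-out counts ran from 13 to 17. For the difference of responses, 2 in the main setting beside 698 of 10050 genes in all, the deposited values gave 1 and an offset of 16 gave 1. Array weights gave 13 and the replicate block within each form 7, beside 2327 and 1402 of 10050 genes in all. Leave-one-out counts ran from 1 to 4. The count was 1 without any 1 of wild-type anti-IgM replicates 1, 2 and 3, mutant untreated replicate 2 and mutant anti-IgM replicate 2, and 4 without mutant untreated replicate 3 or mutant anti-IgM replicate 1. A replicate block over all 12 arrays gave 0, 17, 20, 15 and 3 in the same order of comparisons, and the block within each form gave 0 for the response with mutant E12. On the deposited values with no joint quantile step the mutant minus wild-type difference turned above 0 in untreated cells for Psma2 (0.97), Psma4 (0.75), Psmb1 (0.71), Psmc5 (0.43), Psmd1 (0.35) and Psme1 (0.57), and with anti-IgM for Psma4 (0.49), Psmb7 (0.75), Psmc5 (0.19), Psmd1 (0.050), Psmd12 (0.38) and Psme1 (0.46). Signal over background limits the dim genes Psmd6 and Psmc6 and the 7 symbols with no detected probe.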
